A study of Mus musculus with 20 samples.

Results

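The antioxidant and glutathione genes were a list of 46 mouse genes whose proteins remove superoxide and peroxides, keep thioredoxin and glutathione reduced, conjugate glutathione to other molecules, or control those genes. Of the 46 genes, 44 were measured by a probe set with 1 gene symbol, out of 19938 genes measured that way, and the brightest such probe set of a gene over the 20 arrays stood for the gene. Prdx5 and Prdx6 had no probe set of that kind and are not analysed here.

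RNA from the gastrocnemius, a mixed calf muscle, of adult male C57BL/6 mice had been hybridised to 20 Affymetrix Gene 1.0 ST arrays, 5 in each of 4 groups. NCoR1-MKO mice lack the nuclear receptor corepressor 1 in muscle and were set against their controls, called CON. PGC-1alpha-mTg mice carry a muscle-specific transgene for PGC-1alpha, a transcriptional coactivator, and were set against wild type mice, called WT. The genotype of the CON mice, the ages in weeks, the promoter of the transgene and the Cre driver of the knockout are not stated in the labels. Whether every array stands for a different mouse is not spelled out in the labels. The p-values therefore reflect the spread among the arrays of a group, and some of that spread may be technical. Values are log2 expression after RMA, a method that corrects background, normalizes arrays and summarises the probes of a set, and a difference of log2 values is called a change.

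Superoxide, which leaks from the mitochondrial respiratory chain among other places, is turned into hydrogen peroxide by the superoxide dismutases, and the peroxide is removed by catalase, the glutathione peroxidases and the peroxiredoxins. Glutathione and thioredoxin supply the electrons and are reduced again with NADPH. Many of these genes are targets of Nrf2, a transcription factor that Keap1 holds back until oxidants or electrophiles modify Keap1, and PGC-1alpha is known as a coactivator of mitochondrial genes in muscle, in part through the estrogen-related receptors.

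Promoter windows from RefSeq (build GRCm38.p6, 250 bases before to 50 after an annotated start) were found for 38 of the 44 members and searched on both strands for 3 motifs. The antioxidant response element, bound by Nrf2 with its partners, was searched as TGACNNNGC and was found in 8 of the 38 members, or 21.1%, against 14% of all 27025 genes with a window. Those 8 were Sod1, Prdx1, Txnrd1, Gclm, Mgst1, Srxn1, Nfe2l2 and Mt2. The metal response element, searched as TGCGCNC, was found in 11 of 38 members (28.9%, against 17% of all genes), Mt1 and Mt2 among them, and the single site of the estrogen-related receptors, AAGGTCA, in 2 of 38, Glrx3 and Gstk1 (5.26%, against 5.38% of all genes). The upstream windows of 4 genes are shown because their genes behaved differently under PGC-1alpha: Gclm, which fell, Txnrd1, which rose, and Prdx1, which passed no test, share the letters of the antioxidant response element, and Gstk1, which rose, was the 1 called member with that site. The capitals mark the match, which lay on the opposite strand in each case. It began 134 bases before the start in Gclm (chr3:122245307-122245556, plus strand), 92 in Txnrd1 (chr10:82858956-82859205, plus strand, 1 of 3 annotated windows), 133 in Prdx1 (chr4:116685349-116685598, plus strand) and 141 in Gstk1 (chr6:42245685-42245934, plus strand). In Gclm the match overlapped the end of a metal response element that began 138 bases before the start. Metal response elements are not marked as such, also those that began 72 bases before the start in Gclm and 39 in Gstk1. A match of letters is a description and does not show that a factor binds there.
Gclm: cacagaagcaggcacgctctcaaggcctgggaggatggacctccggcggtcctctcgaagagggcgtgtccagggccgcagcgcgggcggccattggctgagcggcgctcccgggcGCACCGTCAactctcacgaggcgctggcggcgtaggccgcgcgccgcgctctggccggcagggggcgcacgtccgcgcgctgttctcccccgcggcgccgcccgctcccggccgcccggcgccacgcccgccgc
Txnrd1: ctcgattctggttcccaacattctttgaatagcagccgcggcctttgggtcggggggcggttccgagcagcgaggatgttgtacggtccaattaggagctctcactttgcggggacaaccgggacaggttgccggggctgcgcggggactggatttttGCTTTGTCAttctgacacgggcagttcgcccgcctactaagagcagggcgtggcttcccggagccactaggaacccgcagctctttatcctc
Prdx1: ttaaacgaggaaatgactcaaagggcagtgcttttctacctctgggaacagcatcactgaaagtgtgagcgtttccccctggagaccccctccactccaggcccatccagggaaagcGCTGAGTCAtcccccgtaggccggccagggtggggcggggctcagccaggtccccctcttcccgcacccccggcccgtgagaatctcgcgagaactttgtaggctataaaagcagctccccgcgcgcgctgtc
Gstk1: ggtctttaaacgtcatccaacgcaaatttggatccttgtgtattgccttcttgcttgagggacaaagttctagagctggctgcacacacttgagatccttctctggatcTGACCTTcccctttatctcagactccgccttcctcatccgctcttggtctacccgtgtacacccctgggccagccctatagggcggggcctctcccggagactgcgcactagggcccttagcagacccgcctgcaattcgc

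The array medians lay between 6.03 and 6.08 in CON with NCoR1-MKO and between 5.84 and 5.91 in WT with PGC-1alpha-mTg, so each model was read only against its own controls. Ppargc1a, the gene of PGC-1alpha, was 3.55-fold higher in PGC-1alpha-mTg than in WT (change 1.83 ± 0.066, SE, n = 5 and 5, limma adjusted p = 9.88e-15), which checks those labels, while Ncor1 is not analysed here. In whole muscle, fewer cells of a type and less RNA per cell cannot be told apart. Of 10 endothelial markers, 8 rose in PGC-1alpha-mTg (against 11.9% of all genes called higher), with a mean level of 8.51 to 8.70 in the WT arrays and 8.85 to 9.09 in the PGC-1alpha-mTg arrays, and 1 (Cdh5) rose in NCoR1-MKO. There all 10 changes were above 0, 7 with an unadjusted p under 0.05, with a mean change of 0.222 and a mean level of 8.75 to 8.98 in CON and 8.95 to 9.32 in NCoR1-MKO. Of 10 slow fibre markers, 7 fell in PGC-1alpha-mTg (against 16.1% of all genes called lower), from 9.72 to 10.31 in WT to 8.83 to 9.61, and 2 (Myl2 and Myl3) fell in NCoR1-MKO. There 9 of the 10 changes were below 0, 8 with an unadjusted p under 0.05. The mean change was -0.626, close to the -0.655 in PGC-1alpha-mTg, and the mean level went from 9.44 to 10.33 in CON to 8.66 to 9.74 in NCoR1-MKO. Among other lists in PGC-1alpha-mTg, 3 of 8 markers of smooth muscle and pericytes, 3 of 9 of adipocytes and 1 of 10 of macrophages rose, and 3 of 10 of fibroblasts, 1 of 9 of adipocytes (Car3), 1 of 3 of red cells and 1 of 5 of nerve fell, while Adipoq, the adipocyte hormone adiponectin, had a change of 0.24 ± 0.18 (adjusted p = 0.355). Of 12 muscle fibre markers, 2 rose and 5 fell. RMA values have no true 0, so no marker can be called absent. The part of these cell types in the results on the antioxidant genes was not tested.

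With NCoR1 lost from muscle, 43 of the 44 members passed no test. The other 1 was called at an adjusted p under 0.05 by limma (Benjamini-Hochberg over the 19938 genes), against 2.63% of all genes, and no member was called lower. At an unadjusted p under 0.05 there were 7 members (15.9%), against 11.8% of all genes. The median change of the 44 was 0.037, with a range of -0.19 to 0.31, against a median of 0.0014 over all genes, and 28 of 44 changes (63.6%) were above 0, against 50.7% of all genes.

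The called member was Gstm2, a mu class glutathione transferase. It read 10.51, 10.29, 10.42, 10.46 and 10.33 in CON arrays 1 to 5 and 10.71, 10.67, 10.65, 10.68 and 10.44 in NCoR1-MKO arrays 1 to 5. The first 4 knockout arrays lay above every control and NCoR1-MKO 5 lay among the controls. The change was 0.23 ± 0.058 (SE, n = 5 and 5), or 1.17-fold, with an adjusted p of 0.0354. The call was lost when CON 2, 3 or 5 or NCoR1-MKO 1, 2, 3 or 4 was left out, with adjusted p up to 0.108, in a fit of the 10 arrays alone, with 0.0825, and with the replicate number as a block, with 0.0598. Genes of the mu class are close copies of each other, so probes may be shared, which was not tested. Gstm1, the nearest relative on the list, had a change of -0.0078 ± 0.048 (adjusted p = 0.984). Gstm7, a mu class gene outside the list, rose in NCoR1-MKO by 0.22, close to the change of Gstm2.

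The largest member change in the knockout belonged to Srxn1, sulfiredoxin, which repairs over-oxidised peroxiredoxins, and it missed the threshold. It read 8.23, 8.12, 8.07, 8.25 and 8.43 in CON and 8.32, 8.33, 8.45, 8.67 and 8.89 in NCoR1-MKO, a change of 0.31 ± 0.089 with an adjusted p of 0.0652. NCoR1-MKO 3, 4 and 5 stood above all controls, the first of these narrowly, and NCoR1-MKO 1 and 2 among them. Txn2, mitochondrial thioredoxin, was the 1 member whose groups did not overlap, against 4.17% of all genes. Txn2 read 10.77, 10.79, 10.80, 10.83 and 10.80 in CON and 10.87, 10.89, 10.97, 10.91 and 10.93 in NCoR1-MKO, and its change of 0.12 ± 0.036 (95% interval 0.04 to 0.19) had an adjusted p of 0.107. Sod2, the mitochondrial manganese superoxide dismutase, had a change of 0.13 ± 0.038 and an adjusted p of 0.0816. With eBayes run with trend and robust settings, Sod2, Srxn1 and Txn2 were called beside Gstm2, with adjusted p of 0.00954, 0.0426 and 0.0309. With the replicate number as a block, Srxn1 was the 1 member called (adjusted p = 0.0147).

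The knockout arrays did not vary alike. NCoR1-MKO 5 held the highest value of its 10 arrays for 16 of the 44 members, among them Srxn1, Gclm, Hmox1, Nfe2l2, Mt1 and Mt2. The same count was not made over all genes. This array also had the highest mean level of the 10 for the macrophage (7.60), fibroblast (9.37) and muscle fibre (13.33) markers. It had the lowest for the slow fibre markers (8.66) and was at neither end for the other marker lists. Nfe2l2, which encodes Nrf2, read 9.93, 10.07, 10.24, 10.25 and 10.44 in NCoR1-MKO and 10.23, 10.23, 10.16, 10.08 and 10.26 in CON. Mt2, a metallothionein that binds zinc and copper, read 9.28, 9.67, 9.66, 10.01 and 10.78 in NCoR1-MKO and 9.79, 10.16, 10.21, 9.86 and 9.99 in CON. The knockout values of both genes ran from below to above all controls, and neither change passed the test (-0.0073 ± 0.077 and -0.12 ± 0.24, adjusted p = 0.99 and 0.947).

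**Figure D1:**
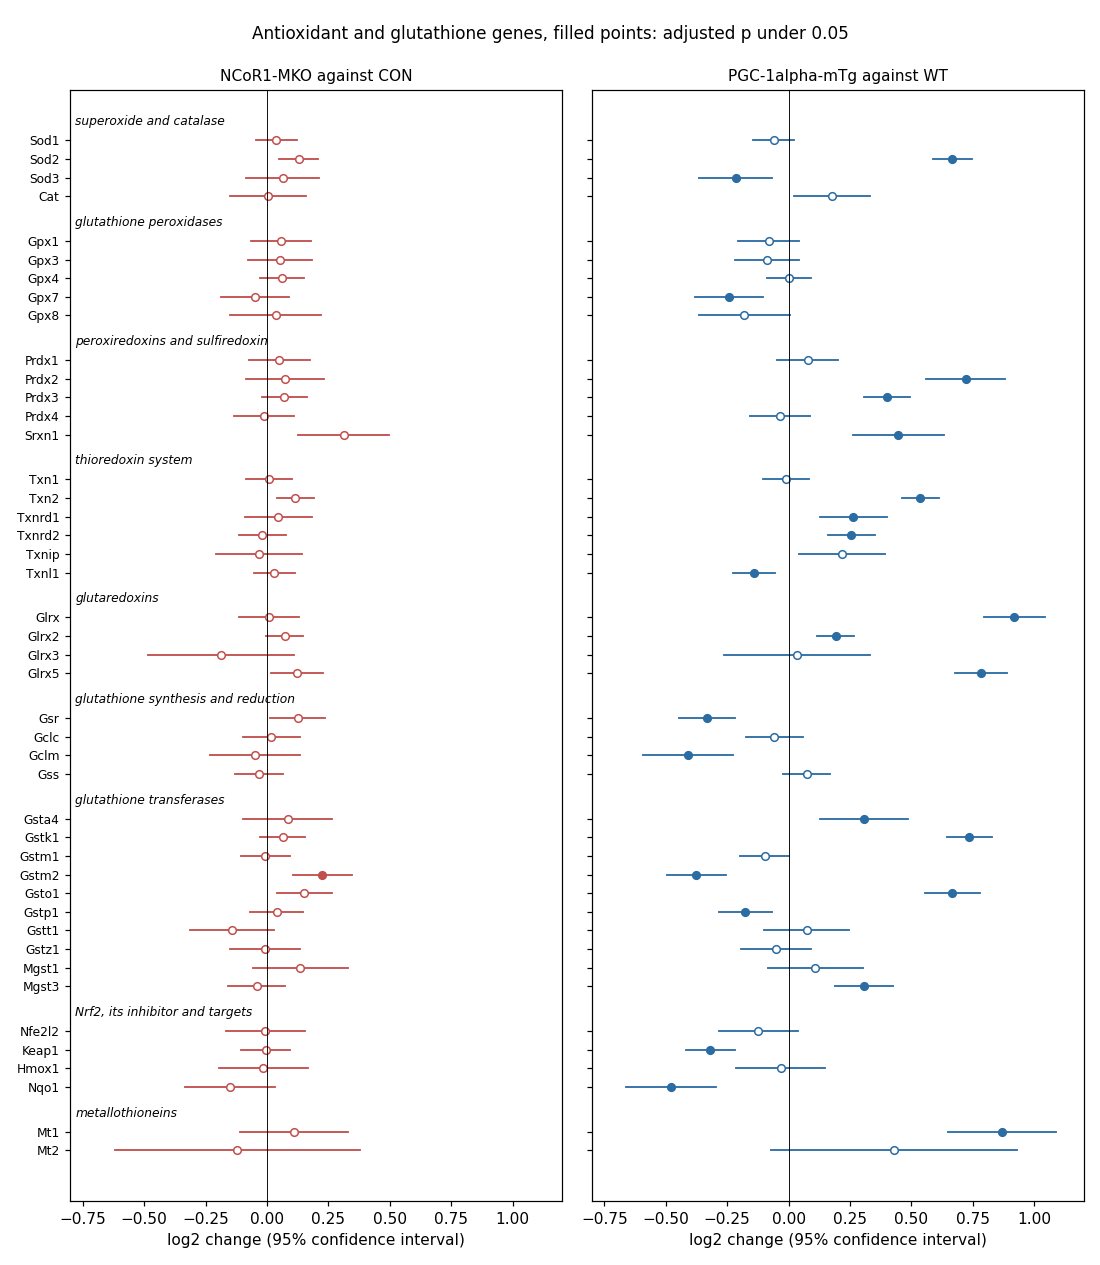
Log2 change of each of the 44 members with its 95% confidence interval, in NCoR1-MKO against CON (left) and PGC-1alpha-mTg against WT (right), grouped by role, with filled points for an adjusted p under 0.05 by limma. On the left 1 point is filled, and on the right 24 are, 15 of them to the right of 0 and 9 to the left.

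PGC-1alpha moved the list in both directions. Of the 44 members, 24 were called, against 28.0% of all genes, 15 higher and 9 lower (background 11.9% and 16.1%). All 6 enzymes placed in the mitochondria rose, led by Glrx5, Sod2 and Txn2, as did 9 others including cytosolic Glrx, Prdx2, Gsto1 and Mt1. Genes of glutathione synthesis and reduction (Gclm and Gsr), Nqo1 and Keap1 fell. The median change of the 44 was 0.054, against 0.018 over all genes, and the range ran from -0.48 for Nqo1 to 0.92 for Glrx, while 26 members (59.1%) had an unadjusted p under 0.05, against 37% of all genes. The groups did not overlap for 19 members, against 19.9% of all genes.

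Among the enzymes that act on superoxide, the mitochondrial form rose. Sod2 read 11.77, 11.82, 11.77, 11.89 and 11.80 in WT arrays 1 to 5 and 12.45, 12.46, 12.49, 12.49 and 12.49 in PGC-1alpha-mTg arrays 1 to 5. The transgenic arrays lay close together and all above the WT arrays. Sod2 rose by 0.67 ± 0.038 (SE, n = 5 and 5), 1.59-fold, with an adjusted p of 9.18e-12. Sod1, the cytosolic copper and zinc enzyme, read 10.74, 10.79, 10.63, 10.60 and 10.65 in WT and 10.63, 10.64, 10.60, 10.61 and 10.63 in PGC-1alpha-mTg. The Sod1 groups overlapped and the change of -0.06 ± 0.04 did not pass the test (95% interval -0.14 to 0.022). Sod3, the secreted form, fell by 0.22 ± 0.071 (adjusted p = 0.026), a call lost without WT 1, 3 or 5 or PGC-1alpha-mTg 3, with adjusted p up to 0.0987. It was also lost without PGC-1alpha-mTg 2 and 3 together, with a change of -0.12 and an adjusted p of 0.242. Array weights and a fit of the 10 arrays alone lost it too, with adjusted p of 0.0673 and 0.0611. Catalase (Cat), the peroxisomal enzyme that splits hydrogen peroxide, had a change of 0.18 ± 0.074 and missed the threshold (adjusted p = 0.0812).

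Of the 5 glutathione peroxidases, none rose. Gpx7, an enzyme of the endoplasmic reticulum, fell by 0.24 ± 0.067 (adjusted p = 0.0078), and its WT arrays ran from 5.82 to 6.14 against 5.59 to 5.87 in PGC-1alpha-mTg, so the groups overlapped. Gpx1, found in cytosol and mitochondria, had a change of -0.081 ± 0.059, the secreted Gpx3 -0.089 ± 0.062, and Gpx8 of the reticulum -0.18 ± 0.089, none of which passed the test. Gpx4, which reduces lipid peroxides in membranes, had a change of 0.0025 ± 0.043 with a 95% interval of -0.088 to 0.092, and its dimmer probe set gave 0.019 ± 0.04. Whether the brighter Gpx4 probe set lies at a related locus was not tested.

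The peroxiredoxins, which reduce peroxides with electrons from thioredoxin, split by gene. Prdx3, the mitochondrial form, read 11.24, 11.16, 11.23, 11.30 and 11.30 in WT and 11.65, 11.59, 11.66, 11.71 and 11.62 in PGC-1alpha-mTg. Its groups did not overlap, and it rose by 0.40 ± 0.044, or 1.32-fold (adjusted p = 2.48e-07). Prdx2, a cytosolic form abundant in red cells, read 10.56, 10.58, 10.50, 10.82 and 10.71 in WT and 11.07, 11.54, 11.46, 11.42 and 11.29 in PGC-1alpha-mTg. All transgenic arrays lay above the WT arrays, with PGC-1alpha-mTg 1 the lowest of them, and the rise was 0.72 ± 0.077 (adjusted p = 1.41e-07). A dimmer probe set also named Prdx2 rose by 0.47 ± 0.05 (adjusted p = 5e-08). The gene table names both Prdx2. Among the members, probe set numbers of genes on 1 chromosome lay together. The brighter number falls between those of Glrx2 and Mgst3, on chr1. The dimmer falls beside those of Mt1 and Mt2, on chr8, where the Prdx2 promoter window lies. The size of the rise of Prdx2 itself is therefore better read from the dimmer set, at 0.47. Where the probes align was not tested. Hemoglobin genes are not analysed here. Of the 3 red cell markers measured, Bpgm fell (-0.33 ± 0.062, adjusted p = 0.000256), and Alas2 and Slc4a1 had changes of 0.20 ± 0.27 and 0.083 ± 0.20 that did not pass.

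Prdx1, the other cytosolic form, had a change of 0.078 ± 0.059 (95% interval -0.045 to 0.20) and Prdx4 of the reticulum -0.034 ± 0.059, and neither passed. A dimmer probe set of Prdx1 gave 0.035 ± 0.058. The number of the brighter one falls between those of Txnrd2 and Sod1, on chr16, while the Prdx1 promoter window lies on chr4. The change of Prdx1 itself is therefore better read from the dimmer set. Where the probes align was not tested. Srxn1 rose. It read 8.09, 8.14, 8.11, 8.11 and 8.28 in WT and 8.49, 8.69, 8.51, 8.70 and 8.59 in PGC-1alpha-mTg, where every array lay above WT 5, the highest control. The rise was 0.45 ± 0.089, 1.36-fold, with an adjusted p of 0.00046.

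In the thioredoxin system, 3 of 6 genes rose and 1 fell. Txn2 read 10.51, 10.42, 10.46, 10.41 and 10.49 in WT and 10.92, 11.03, 11.01, 10.98 and 11.01 in PGC-1alpha-mTg. The 2 sets of arrays were separated by a gap wider than either set's own range, and Txn2 rose by 0.54 ± 0.036, or 1.45-fold (adjusted p = 1.02e-10). Cytosolic thioredoxin, Txn1, had a change of -0.011 ± 0.045 (95% interval -0.11 to 0.083). The 2 reductases that recharge thioredoxin with NADPH rose by similar amounts. Mitochondrial Txnrd2 read 6.77, 6.91, 6.86, 6.82 and 6.77 in WT and 7.14, 7.08, 6.98, 7.10 and 7.10 in PGC-1alpha-mTg, without overlap, and rose by 0.25 ± 0.046 (adjusted p = 0.000159). Cytosolic Txnrd1 rose by 0.26 ± 0.066 (adjusted p = 0.00363), from 8.51 to 8.67 in WT to 8.71 to 8.94 in PGC-1alpha-mTg. Txnip, the protein that binds and blocks thioredoxin, had a change of 0.22 ± 0.084 and an adjusted p of 0.0607. Txnl1, a thioredoxin-like protein of the proteasome, fell by 0.14 ± 0.041 (adjusted p = 0.0108). That call was lost without PGC-1alpha-mTg 2 and 3, with an adjusted p of 0.155, and in a fit of the 10 arrays alone, with 0.0523.

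Of the 4 glutaredoxins, 3 rose, and 2 of them were among the members with the largest changes. Glrx, the cytosolic glutaredoxin that removes glutathione from protein thiols, read 8.51, 8.52, 8.36, 8.46 and 8.53 in WT and 9.40, 9.46, 9.40, 9.37 and 9.35 in PGC-1alpha-mTg. No WT array came near the transgenic arrays, and the rise of 0.92 ± 0.06, 1.89-fold, was the largest on the list (adjusted p = 5.24e-11). Glrx5, which passes iron-sulfur clusters to mitochondrial proteins, read 9.63, 9.70, 9.58, 9.54 and 9.47 in WT and 10.29, 10.37, 10.43, 10.30 and 10.44 in PGC-1alpha-mTg. It rose by 0.78 ± 0.05, 1.72-fold (adjusted p = 4.53e-11), again without overlap. Glrx2, mainly mitochondrial, rose least of the 3. Its arrays read 10.54, 10.54, 10.48, 10.54 and 10.49 in WT and 10.69, 10.70, 10.69, 10.76 and 10.71 in PGC-1alpha-mTg, a small but fully separated change of 0.19 ± 0.036 (adjusted p = 0.000254). Glrx3, a cytosolic iron-sulfur protein, had a change of 0.035 ± 0.14 with wide spread (95% interval -0.26 to 0.33).

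**Figure D2:**
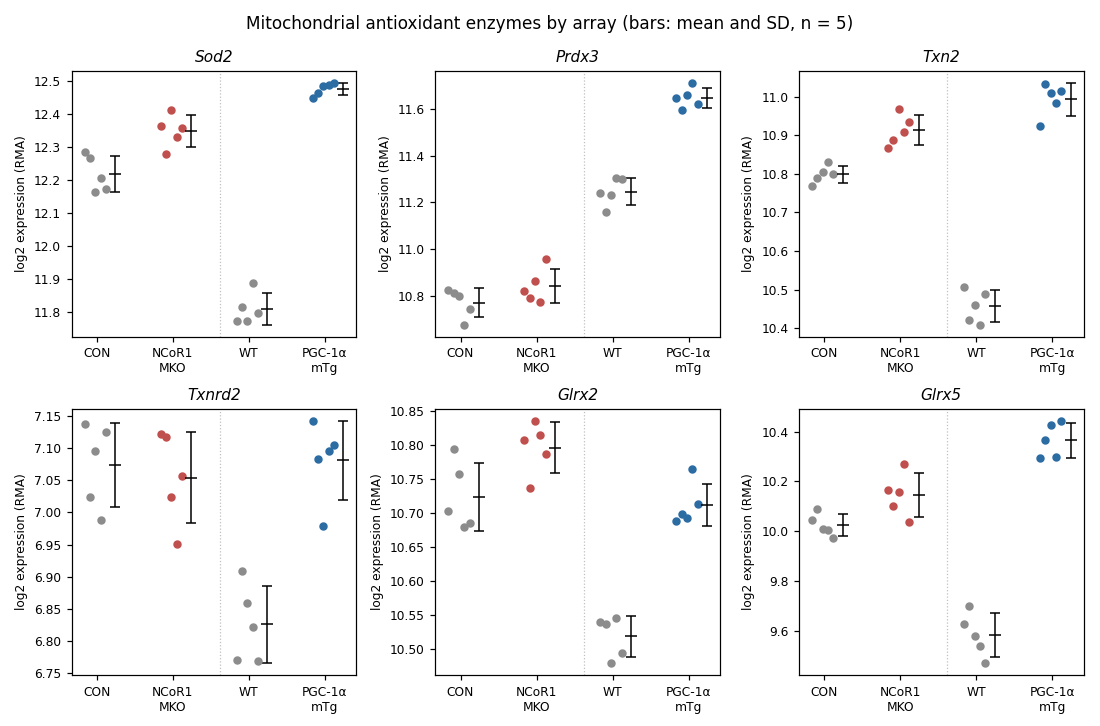
Log2 expression of the 6 mitochondrial enzymes in each of the 20 arrays, with the mean and SD of each group of 5. In the right-hand pair of each panel every PGC-1alpha-mTg array lies above every WT array, while CON and NCoR1-MKO overlap in all panels except Txn2.

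The enzymes that make and recycle glutathione moved the other way or passed no test. Gsr, glutathione reductase, which returns oxidised glutathione to its reduced form, read 8.51, 8.34, 8.51, 8.45 and 8.38 in WT and 8.25, 8.08, 8.06, 8.09 and 8.06 in PGC-1alpha-mTg. Every transgenic array was below every WT array, with PGC-1alpha-mTg 1 apart from the other 4. Gsr fell by 0.33 ± 0.054, 1.26-fold lower (adjusted p = 4.69e-05). Gclm, the modifier subunit of glutamate-cysteine ligase, the rate-limiting enzyme of glutathione synthesis, read 9.16, 9.19, 9.24, 9.19 and 9.28 in WT and 8.73, 8.68, 8.66, 9.05 and 8.87 in PGC-1alpha-mTg. The WT arrays were tight and the transgenic arrays spread over a wider range below them, and Gclm fell by 0.41 ± 0.088, 1.33-fold lower (adjusted p = 0.000965). The catalytic subunit, Gclc, had a change of -0.059 ± 0.056 (95% interval -0.18 to 0.058), and glutathione synthetase, Gss, 0.073 ± 0.047. Neither passed the test.

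Of the 10 glutathione transferases, 4 rose and 2 fell. Gstk1, the kappa class enzyme of mitochondria and peroxisomes, read 10.93, 10.90, 10.90, 10.91 and 10.75 in WT and 11.52, 11.68, 11.59, 11.62 and 11.66 in PGC-1alpha-mTg. The groups were far apart, with WT 5 the lowest array, and Gstk1 rose by 0.74 ± 0.044, 1.66-fold (adjusted p = 1.91e-11). Gsto1, an omega class enzyme with glutaredoxin-like activity, read 8.58, 8.60, 8.72, 8.55 and 8.62 in WT and 9.21, 9.24, 9.31, 9.32 and 9.32 in PGC-1alpha-mTg. It rose by 0.67 ± 0.054, 1.59-fold (adjusted p = 2.08e-09), without overlap. Gsta4, which conjugates lipid aldehydes, rose by 0.31 ± 0.087 (adjusted p = 0.00959), and the membrane enzyme Mgst3 by 0.31 ± 0.056 (adjusted p = 0.000189).

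Gstm2 read 9.47, 9.46, 9.63, 9.63 and 9.54 in WT and 9.16, 9.18, 9.09, 9.13 and 9.30 in PGC-1alpha-mTg. Every transgenic array was below the WT arrays, and Gstm2 fell by 0.38 ± 0.058, 1.3-fold lower (adjusted p = 2.36e-05). The direction was the reverse of that in the knockout, where the groups overlapped. Gstp1, of the pi class, fell by 0.18 ± 0.051 (adjusted p = 0.0121), from 10.71 to 10.89 in WT to 10.55 to 10.74 in PGC-1alpha-mTg, with overlap. Gstm1 (-0.10 ± 0.048), Gstt1 (0.073 ± 0.083), Gstz1 (-0.053 ± 0.069), an enzyme of tyrosine breakdown, and Mgst1 (0.11 ± 0.093) did not pass. A near copy of Gstp1, Gstp2, is not analysed here, and probes of such copies may be shared. The same holds for Gstm2 and Gstm4, a mu class gene outside the list that also fell.

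Nrf2's own gene did not pass the test, while its inhibitor Keap1 fell. Of several of its textbook targets on the list, chosen by hand and not a full set, Nqo1, Gclm and Gsr fell. Srxn1 and Txnrd1 rose, and Hmox1 and Gclc passed no test. Nfe2l2 read 9.68, 9.90, 9.97, 10.09 and 10.01 in WT and 9.79, 9.82, 9.73, 9.80 and 9.87 in PGC-1alpha-mTg, a change of -0.12 ± 0.077 (adjusted p = 0.266) with overlapping groups. Keap1 read 8.50, 8.60, 8.54, 8.49 and 8.54 in WT and 8.29, 8.25, 8.04, 8.25 and 8.25 in PGC-1alpha-mTg. All transgenic arrays were below the WT arrays, PGC-1alpha-mTg 3 furthest, and Keap1 fell by 0.32 ± 0.048, 1.25-fold lower (adjusted p = 1.73e-05). Nqo1, the quinone reductase, read 8.36, 8.41, 8.49, 8.51 and 8.25 in WT and 8.28, 7.62, 7.75, 7.99 and 7.99 in PGC-1alpha-mTg. PGC-1alpha-mTg 2 to 5 lay below all controls and PGC-1alpha-mTg 1 lay just above WT 5. Nqo1 fell by 0.48 ± 0.088, 1.39-fold lower (adjusted p = 0.000195). Hmox1, heme oxygenase, had a change of -0.033 ± 0.087 (95% interval -0.21 to 0.15).

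The members with the letters of the antioxidant response element did not share a direction under PGC-1alpha. Srxn1 and Txnrd1 rose, Gclm fell, and Sod1, Prdx1, Mgst1, Nfe2l2 and Mt2 passed no test.

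Of the metallothioneins, Mt1 rose. It read 8.49, 8.51, 8.68, 8.47 and 9.12 in WT and 9.39, 9.74, 9.50, 9.48 and 9.51 in PGC-1alpha-mTg, with WT 5 well above the other controls and still below every transgenic array. The rise was 0.87 ± 0.11, 1.82-fold (adjusted p = 1.04e-06). Mt2 read 9.01, 8.83, 9.36, 9.003 and 10.34 in WT and 9.64, 9.99, 9.52, 9.57 and 9.98 in PGC-1alpha-mTg. WT 5 was the highest of all 10 arrays and the other 4 controls lay below all transgenic arrays. The change of 0.43 ± 0.24 missed the threshold (adjusted p = 0.208), and without WT 5 it was 0.69 with an adjusted p of 0.0125.

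**Figure D3:**
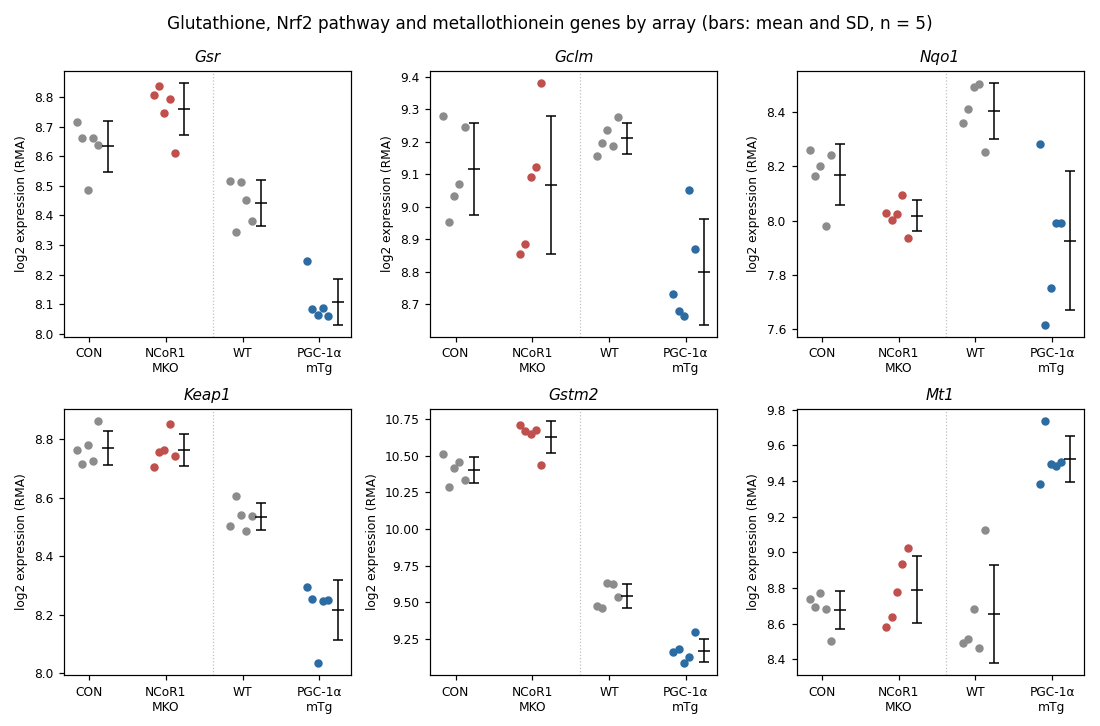
Log2 expression of Gsr, Gclm, Nqo1, Keap1, Gstm2 and Mt1 in each of the 20 arrays, with the mean and SD of each group of 5. PGC-1alpha-mTg arrays lie below WT arrays for Gsr, Gclm, Keap1 and Gstm2, above them for Mt1, and overlap by 1 array for Nqo1 (8.28 against 8.25).

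By place in the cell, the enzymes listed as mitochondrial stood together. That list, like the others, was drawn up with earlier results of these data known. Sod2, Prdx3, Txn2, Txnrd2, Glrx2 and Glrx5 were all called higher in PGC-1alpha-mTg, against 11.9% of all genes. Their median change was 0.47, with a range of 0.19 to 0.78. The mean of the 6 was 10.05 to 10.09 in the WT arrays and 10.52 to 10.57 in the PGC-1alpha-mTg arrays. All 6 stayed called in every alternative setting run. The 18 cytosolic enzymes measured had 5 higher (Prdx2, Txnrd1, Glrx, Gsto1 and Srxn1) and 5 lower (Txnl1, Gclm, Gstm2, Gstp1 and Nqo1), with a median of 0.012. Of 7 enzymes found in more than 1 place or in peroxisomes, Gstk1 and Gsta4 rose and Gsr fell. Gpx1, found in cytosol and mitochondria, and Gpx4 are among the 7 and passed no test. Of 8 that are secreted or sit in the reticulum or membranes, Mgst3 rose and Sod3 and Gpx7 fell. In NCoR1-MKO the 6 mitochondrial changes ran from -0.02 to 0.13 and none was called.

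Pairs of a mitochondrial enzyme and a counterpart, 6 in all, were compared by the difference of their log2 values within each array, so that only the change of that difference between groups was read, never the level of 1 probe set against another. An exact two-sided permutation test over the 5 and 5 arrays was adjusted over the 12 comparisons (6 pairs in 2 models), and 0.00794 is the smallest p that design can give. In PGC-1alpha-mTg, Sod2 rose over Sod1 by 0.73 ± 0.05, Txn2 over Txn1 by 0.55 ± 0.06 and Prdx3 over Prdx1 by 0.32 ± 0.04, each with an exact p of 0.00794 and an adjusted p of 0.0238. Prdx1 was read by its brighter probe set, whose number falls among those of chr16 genes and not of chr4, so this pair may not read Prdx1 itself. For Glrx the cytosolic enzyme rose more than the mitochondrial one, and for Prdx2 the result depended on the probe set. The difference Glrx2 minus Glrx changed by -0.73 ± 0.04 (exact p = 0.00794, adjusted p = 0.0238), and Prdx3 minus Prdx2 by -0.32 ± 0.10 (exact p = 0.0159, adjusted p = 0.0381). The latter used the brighter Prdx2 probe set, whose number falls among those of chr1 genes. With the mean of both probe sets it was -0.20 and had an adjusted p of 0.0571, and it was lost without WT 1, 2, 3 or 5 or PGC-1alpha-mTg 2, with adjusted p up to 0.0762. Txnrd2 minus Txnrd1 had a difference of -0.0084 with a 95% interval of -0.15 to 0.13 (exact p = 0.897). In NCoR1-MKO 0 of 6 pairs passed, with Txn2 minus Txn1 nearest at 0.11 ± 0.04 (exact p = 0.0556, adjusted p = 0.111), a pair that passed without CON 3 (0.13, adjusted p = 0.019). No pair passed in either model without PGC-1alpha-mTg 2 and 3, where 5 arrays against 3 limit how small an exact p can be.

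**Figure D4:**
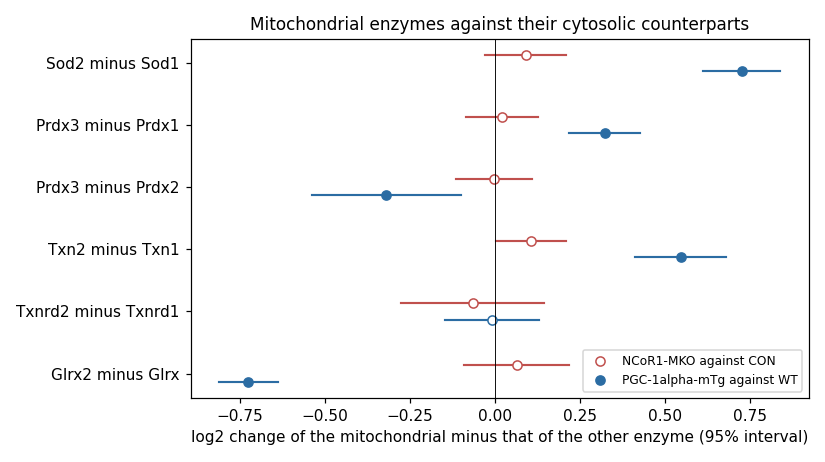
Change of the within-array log2 difference, mitochondrial minus other enzyme, with its 95% interval, for 6 pairs in NCoR1-MKO against CON and PGC-1alpha-mTg against WT, filled where the exact permutation test had an adjusted p under 0.05. In PGC-1alpha-mTg 3 pairs lie right of 0 (Sod2, Prdx3 with Prdx1, and Txn2), 2 lie left of it (Prdx3 with Prdx2, and Glrx2), and Txnrd2 lies at -0.0084, while no NCoR1-MKO point is filled. Prdx1 and Prdx2 are shown by their brighter probe sets, which may not read these genes themselves.

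Whether a gene responded differently in the 2 models was tested as the change in PGC-1alpha-mTg minus the change in NCoR1-MKO, in the same limma fit. Of the 44 members, 16 differed, against 15.2% of all genes, 11 with a difference above 0 (background 6.66%) and 5 with a difference below 0 (background 8.50%). Glrx had the largest positive difference (0.91 ± 0.084, adjusted p = 8.71e-08), followed by Mt1 (0.76 ± 0.15), Gstk1 (0.67 ± 0.063) and Glrx5 (0.66 ± 0.071). Of the 6 mitochondrial enzymes 5 differed, and Glrx2, with 0.12 ± 0.051, did not pass (adjusted p = 0.13). With quantile normalization across the 20 arrays Glrx2 was called too (0.15, adjusted p = 0.027). Gstm2 had the largest negative difference, -0.60 ± 0.082 (adjusted p = 1.34e-05), rising in 1 model and falling in the other. Gsr (-0.46 ± 0.076) and Keap1 (-0.31 ± 0.068) also differed. Gclm (-0.36 ± 0.12, adjusted p = 0.0544) and Nqo1 (-0.33 ± 0.12, adjusted p = 0.0836) fell in PGC-1alpha-mTg, and the difference between the models missed the threshold for both. For Nqo1 the difference was called with array weights (adjusted p = 0.0468) and without PGC-1alpha-mTg 1 (0.0072). For Gclm it lay at the edge: it was called in 6 of 20 fits that left out 1 array, with the dimmest 40% of genes left out (adjusted p = 0.0376), with median centring (0.0444), with eBayes trend and robust (0.0456) and with the replicate block (0.0414). Txnl1 (-0.17 ± 0.058, adjusted p = 0.0468) and Gstp1 (-0.22 ± 0.073, adjusted p = 0.049) were called at the edge of the threshold and kept the call in 4 and 6 of 20 fits that left out 1 array.

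Other genes of the pathway were counted from lists drawn up by function, and their counts stand against 28.0% of all genes called in PGC-1alpha-mTg and 2.63% in NCoR1-MKO. Of 16 partners of Nrf2 and genes of heme and iron storage, 2 rose and 7 fell in PGC-1alpha-mTg. Hmox2, the constitutive heme oxygenase, rose by 0.49 ± 0.045 (adjusted p = 1.51e-08), while Sqstm1, an autophagy adaptor that binds Keap1, fell by 0.41 ± 0.042 (adjusted p = 7.7e-08) and Bach1, a repressor at Nrf2 sites, by 0.30 ± 0.052 (adjusted p = 9.2e-05). In NCoR1-MKO Hmox2 alone of the 16 was called (0.17 ± 0.045, adjusted p = 0.0467). Of 12 further glutathione transferases, Gstm4 fell in PGC-1alpha-mTg (-0.18 ± 0.051, adjusted p = 0.00878) and Gstm7 rose in NCoR1-MKO (0.22 ± 0.052, adjusted p = 0.0188), with no other call. Of 14 genes of glutathione transport and breakdown and of the glyoxalase pathway, 5 rose and 2 fell in PGC-1alpha-mTg. Slc25a39, the carrier that brings glutathione into mitochondria, rose by 0.88 ± 0.054 (adjusted p = 2.28e-11), Hagh, a glyoxalase, by 0.54 ± 0.041 (adjusted p = 5.44e-10), and Abcc1, an exporter of glutathione conjugates, fell by 0.52 ± 0.051 (adjusted p = 3.65e-08). In NCoR1-MKO Chac2 and Oplah, which act in the breakdown of glutathione, fell by 0.25 ± 0.059 and 0.20 ± 0.05 (adjusted p = 0.0199 and 0.032), and Slc25a39 had a change of 0.16 ± 0.054 that did not pass (adjusted p = 0.145).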

How the data were processed

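Labelled RNA of 20 gastrocnemius samples, 250 ng of total RNA each, was measured on whole-transcript arrays. The deposited values are log2 expression values made by RMA, per the submitters' processing notes. These list Partek as well, without a version. The genome build and annotation of the probe sets are not stated in the labels or file headers. The array quantiles differed between the 2 cohorts by 0.195 on average, so levels were compared within a cohort.

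Of 35556 probe sets, 21789 had 1 gene symbol in the platform's gene table, 1621 had several and 12146 had none. For the 999 genes with more than 1 such probe set the brightest was used. Group means of 19938 genes were fitted by limma (version 3.58.1, under R 4.3.3) over the 20 arrays, and contrasts were tested with moderated statistics (eBayes), two-sided, with Benjamini-Hochberg adjustment over all genes and calls at an adjusted p under 0.05. Intervals have 95% coverage. The fit was tested on simulated data. Pairs of enzymes were tested with exact permutation tests. The precision rests on the number of arrays, 5 a group, and the files give no background level of a probe set.

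The members and lists were chosen with earlier results of these data known. All measured members are named, with up to 3 genes of each other pathway list, those with the smallest adjusted p. Alternatives were quantile normalization across arrays, centring on medians, leaving out the dimmest 40% of genes, averaging of all probe sets of a gene, only 10 arrays, eBayes with trend and robust, array weights, a replicate block and each array left out.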

Additional observations from a re-analysis of the deposited data

Results flagged for a closer look

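A test of the difference between the 2 models, taken as the change in PGC-1alpha-mTg minus the change in NCoR1-MKO, singled out 16 members (limma, adjusted p under 0.05). The differences above 0 were 0.537 for Sod2, 0.647 for Prdx2 by its brighter probe set, 0.33 for Prdx3, 0.421 for Txn2, 0.274 for Txnrd2, 0.91 for Glrx, 0.661 for Glrx5, 0.671 for Gstk1, 0.514 for Gsto1, 0.349 for Mgst3 and 0.755 for Mt1. Those below 0 were -0.173 for Txnl1, -0.458 for Gsr, -0.6 for Gstm2, -0.215 for Gstp1 and -0.313 for Keap1. The first set holds 5 mitochondrial enzymes, and Gsr, Gstm2 and Keap1 in the second fell in PGC-1alpha-mTg with groups that did not overlap.

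In 9 of 176 groups of 5 arrays, 1 array stood apart from the other 4 by Dixon's test, which chance does for about 1 group in 20. NCoR1-MKO 5 was the array in 3 of them, high for Sod3 (7.628, next 7.462) and Gpx8 (8.317, next 7.994) and low for Gstm2 (10.44, next 10.65). WT 5 was high for Srxn1 (8.283) and low for Gstk1 (10.75), and WT 4 was high for Gss (6.699). CON 1 was high for Prdx1 (10.57), PGC-1alpha-mTg 1 high for Gsr (8.246) and PGC-1alpha-mTg 3 low for Keap1 (8.035). Without any 1 of these arrays, the calls of Srxn1, Gstk1, Gsr and Keap1 in PGC-1alpha-mTg held.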

How the results depend on the processing

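In PGC-1alpha-mTg the 24 called members became 23 to 25 with 1 array left out (15 to 16 higher, 8 to 10 lower) and 22 without PGC-1alpha-mTg 2 and 3, a setting chosen after seeing the data because their medians were the highest of their cohort. The 1 call in NCoR1-MKO was less stable: 3 members, all higher, were called with the dimmest 40% of genes left out, 4 with eBayes trend and robust and 0 with only the 10 arrays, and 0 to 1 with 1 array left out (0 without CON 2, CON 3, NCoR1-MKO 3 or NCoR1-MKO 4, while without CON 5, NCoR1-MKO 1 or NCoR1-MKO 2 the 1 call was Srxn1 in place of Gstm2). For the difference between models, 14 to 16 members were called with 1 array left out, and the lower ones went from 5 to 3 without CON 2 or 3, NCoR1-MKO 3, 4 or 5, WT 3 or PGC-1alpha-mTg 3 (range 3 to 5). Of the 5 pairs called in PGC-1alpha-mTg, 4 to 5 were called with 1 array left out, and in NCoR1-MKO 0 to 1 (1 without CON 3). Without PGC-1alpha-mTg 2 and 3 the pairs called were 0, in a test of 5 arrays against 3. Arrays with the same replicate number did not deviate together in NCoR1-MKO with CON (r of -0.132 to 0.04). In PGC-1alpha-mTg with WT, r was 0.196, 0.115, -0.232, 0.107 and 0.085 for replicates 1 to 5. There WT 1 and WT 5 matched the transgenic array of their own number best. As these correlations were weak, arrays were not treated as pairs in the main fit. With the replicate number as a block, 1, 25 and 15 members were called in NCoR1-MKO, PGC-1alpha-mTg and for the difference, where the 1 in NCoR1-MKO was Srxn1 (adjusted p = 0.0147) and not Gstm2 (0.0598), and 0 pairs, since the paired sign-flip test can give no p below 0.0625. Of 4069 further values of single genes and pairs, 0 reversed, 69 fell short of the threshold and 38 passed it in place of missing it, and the causes were not tested.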

Other observations

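A few genes that supply NADPH, the electron source of glutathione and thioredoxin reductases, were called in both models. Of 16 measured, Me1, the cytosolic malic enzyme, fell in NCoR1-MKO (-0.27 ± 0.047, adjusted p = 0.00146) and in PGC-1alpha-mTg (-0.89 ± 0.047, adjusted p = 2.39e-12). Me3, a mitochondrial malic enzyme, rose in both (0.26 ± 0.056, adjusted p = 0.00887, and 0.65 ± 0.056, adjusted p = 4.99e-09). In PGC-1alpha-mTg 2 of the 16 rose and 3 fell, with Idh1, cytosolic isocitrate dehydrogenase, at 0.50 ± 0.071 (adjusted p = 7.59e-06). That share, and the shares of the lists that follow, stand against 28.0% of all genes called in PGC-1alpha-mTg and 2.63% in NCoR1-MKO, and 5 of 16 is near that background. Of 12 NADPH oxidase subunits and other sources of oxidants, 2 rose and 2 fell in PGC-1alpha-mTg, also near background. Maoa, a monoamine oxidase that makes hydrogen peroxide, fell by 0.50 ± 0.083 (adjusted p = 5.92e-05), while its relative Maob rose by 0.27 ± 0.066 (adjusted p = 0.00269) there and fell by 0.25 ± 0.066 in NCoR1-MKO (adjusted p = 0.0438).

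Among 17 methionine sulfoxide reductases and selenoprotein genes, 4 rose and 6 fell in PGC-1alpha-mTg. Msrb2, the mitochondrial methionine sulfoxide reductase, rose by 1.17 ± 0.052 (2.25-fold, adjusted p = 2.49e-13), more than any of the 44 members, and Msrb3 fell by 0.42 ± 0.046 (adjusted p = 2.09e-07). Selenow, a selenoprotein abundant in muscle, fell by 0.61 ± 0.053 (adjusted p = 5.85e-09). In NCoR1-MKO Msrb1 rose by 0.50 ± 0.07 (adjusted p = 0.000128) and Msrb3 fell by 0.27 ± 0.046 (adjusted p = 0.00134), the 2 calls among the 17. Of 17 thioredoxin-fold relatives and mitochondrial oxidant genes, 5 rose and 2 fell in PGC-1alpha-mTg, with Ucp3, a mitochondrial carrier of muscle, at 0.95 ± 0.16 (adjusted p = 4.69e-05), and 0 were called in NCoR1-MKO by limma, where 2 had an unadjusted p under 0.05.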
